A study of Homo sapiens with 8 samples.

Results

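The α- and β-tubulin isotype genes are described here in the Burkitt lymphoma line Raji and its rituximab-resistant derivative Raji-4RH, each treated with DMSO or with chidamide, an inhibitor of histone deacetylases. The 10 genes (TUBA1A, TUBA1B, TUBA1C, TUBA4A, TUBB, TUBB2A, TUBB2B, TUBB4A, TUBB4B and TUBB6) were chosen by symbol with results from the same libraries known, and TUBB4A was singled out for its level in Raji-4RH cells with chidamide. The levels and fitted differences of TUBB4A are therefore given as a description with no test. The counts of called genes leave it out unless it is named as included. The calls for the other genes describe the same libraries that were in view when the genes were selected. Of 17 gene labels with these symbols 11 could be placed, among 18143 of 63967 labels placed in the whole table. They gave 1 label with reads for each of the 10 genes, and a further TUBB label, ENSG00000183311, had 0 reads in all 8 libraries. The other 6 TUBB labels were not analysed here.

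Microtubules are hollow polymers of α- and β-tubulin heterodimers that form the mitotic spindle and the tracks of intracellular transport. Each subunit is encoded by a family of isotype genes whose products differ most in the acidic carboxy-terminal tail, where motors, associated proteins and modifying enzymes bind. TUBB, TUBB4B and TUBA1B are made in most dividing cells, while TUBB4A, TUBB2A, TUBB2B and TUBA1A are known from the nervous system, where TUBB4A is abundant in neurons and myelinating oligodendrocytes.

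The 4 groups were Raji with DMSO, Raji with 3 μM chidamide, Raji-4RH with DMSO and Raji-4RH with 3 μM chidamide. Cells were collected after 24 h, and each group had 2 RNA-seq libraries. Raji-4RH stands for 1 resistant derivative of 1 parental line, and no library came from another line. Levels are in FPKM, the reads of a gene scaled to its length in kilobases and to the read total of the library.

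The libraries held between 13991697 and 21193441 reads, with the lowest total in Raji-4RH chidamide replicate 1, and between 90.7% and 93.2% of the reads of a library were placed. The 2 Raji-4RH chidamide libraries differed the most from each other (chi-square per degree of freedom 13.5 over genes with at least 20 reads, against 1.77 to 5.25 in the other groups). In all 8 libraries the B-cell markers CD79A (166 to 575 FPKM), CD79B (232 to 298 FPKM), CD22, MS4A1 and PAX5 were present. The sum of these 5 markers was lower with chidamide, from 883 to 893 FPKM against 993 to 1027 FPKM in Raji, and from 548.5 to 569 FPKM against 680.2 to 719 FPKM in Raji-4RH. The sum of 4 T-cell markers was at most 0.0782 and 0.891 FPKM in Raji and Raji-4RH with DMSO, and ran from 0.815 to 1.05 and from 3.96 to 4.89 FPKM with chidamide. That of 3 monocyte markers was at most 0.981 and 0.897 FPKM with DMSO, and ran from 5.75 to 6.14 and from 7.79 to 7.92 FPKM with chidamide. The T-cell sum in Raji-4RH was mostly CD3E (0.619 and 0.830 FPKM with DMSO, 2.94 and 4.10 FPKM with chidamide), while CD2, CD3D and CD3G were at most 0.128, 0.538 and 0.354 FPKM, with CD3D at 0 in all DMSO libraries. Of the monocyte markers, CSF1R was at most 0.124 FPKM with DMSO and at least 2.94 FPKM with chidamide, LYZ was highest in Raji-4RH with chidamide (4.13 and 4.06 FPKM) and CD14 was at most 0.777 FPKM. The sum of 4 neuron markers, nearly all of it SYP, was at most 1.85 and 0.436 FPKM with DMSO, and at most 3.36 and 1.35 FPKM with chidamide. The part of these marker levels in the tubulin levels was not tested. Fewer transcripts of a gene and a smaller share of the RNA of a cell cannot be told apart in these bulk values.

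The reference coding sequences (GENCODE v29, GRCh38) show how alike these genes are. The complete coding sequences of TUBA1A and TUBA1B were 97.2% identical, with a longest shared run of 221 bases, and those of TUBA1B and TUBA1C were 96.8% identical, with a shared run of 326 bases. Reads inside such runs cannot be assigned to 1 gene, so levels of these 3 genes are uncertain to that extent.

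The last 60 bases of the coding sequence of 5 β isotypes are printed 5′ to 3′, with the stop codon in capitals, because this stretch encodes the carboxy-terminal tail. They are shown in the order of their levels in Raji-4RH with chidamide, TUBB (chr6:30724338-30724397, plus strand), TUBB4B (chr9:137243497-137243556, plus strand), TUBB4A (chr19:6495164-6495223, minus strand), TUBB2A (chr6:3153863-3153922, minus strand) and TUBB6 (chr18:12326071-12326130, plus strand).
TUBB: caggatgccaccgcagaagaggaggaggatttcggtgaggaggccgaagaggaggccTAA
TUBB4B: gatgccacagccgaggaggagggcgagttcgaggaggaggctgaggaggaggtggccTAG
TUBB4A: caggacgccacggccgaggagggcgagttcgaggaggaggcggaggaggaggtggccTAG
TUBB2A: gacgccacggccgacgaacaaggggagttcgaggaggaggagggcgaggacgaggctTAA
TUBB6: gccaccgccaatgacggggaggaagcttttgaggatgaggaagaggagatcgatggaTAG
Over the whole coding sequence the 6 β genes were between 81.0% and 98.1% identical in pairs, with the lowest value for TUBB and TUBB6 and the highest for TUBB2A and TUBB2B. TUBB4A was 87.3% identical to TUBB4B, with a longest shared run of 78 bases, and 90.1% identical to TUBB2A, with a run of 98 bases. TUBB2A and TUBB2B shared a run of 725 bases, so their reads are the hardest of the β genes to tell apart.

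TUBB4A (ENSG00000104833, chr19:6494319-6502848, minus strand) was nearly silent in Raji, low in Raji-4RH with DMSO and far higher in Raji-4RH with chidamide. In Raji it had 0.0584 and 0.0143 FPKM with DMSO (4 reads and 1 read) and 0.0420 and 0.0554 FPKM with chidamide (3 and 4 reads). In Raji-4RH it had 0.692 and 0.790 FPKM with DMSO (45 and 58 reads) and 22.7 and 27.5 FPKM with chidamide (1102 and 1757 reads). The Raji libraries overlapped between treatments and lay near the level of 3 reads, the Raji-4RH DMSO libraries lay above all of them, and the Raji-4RH chidamide libraries lay far above the rest. The mean in Raji-4RH went from 0.741 ± 0.0688 to 25.1 ± 3.39 FPKM (SD, n = 2), 33.9-fold higher with chidamide. The log2 fold change was 3.90 in Raji-4RH and 0.02 in Raji, on the log2(FPKM + 1) scale, which understates changes of low values. TUBB4A passed the filter on low values (at least 1 FPKM in at least 2 libraries) only through the Raji-4RH chidamide group. Its values stood in the row of its own label, 2978 rows from the nearest shift between labels and values. Of the 4 neuron markers, SYP went from 0.339 ± 0.0318 to 1.12 ± 0.141 FPKM (SD, n = 2) with chidamide in Raji-4RH and from 1.73 ± 0.146 to 3.33 ± 0.0318 FPKM in Raji, and RBFOX3, SYT1 and SNAP25 stayed at or under 0.0796, 0.0330 and 0.0213 FPKM in every library.

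**Figure D1:**
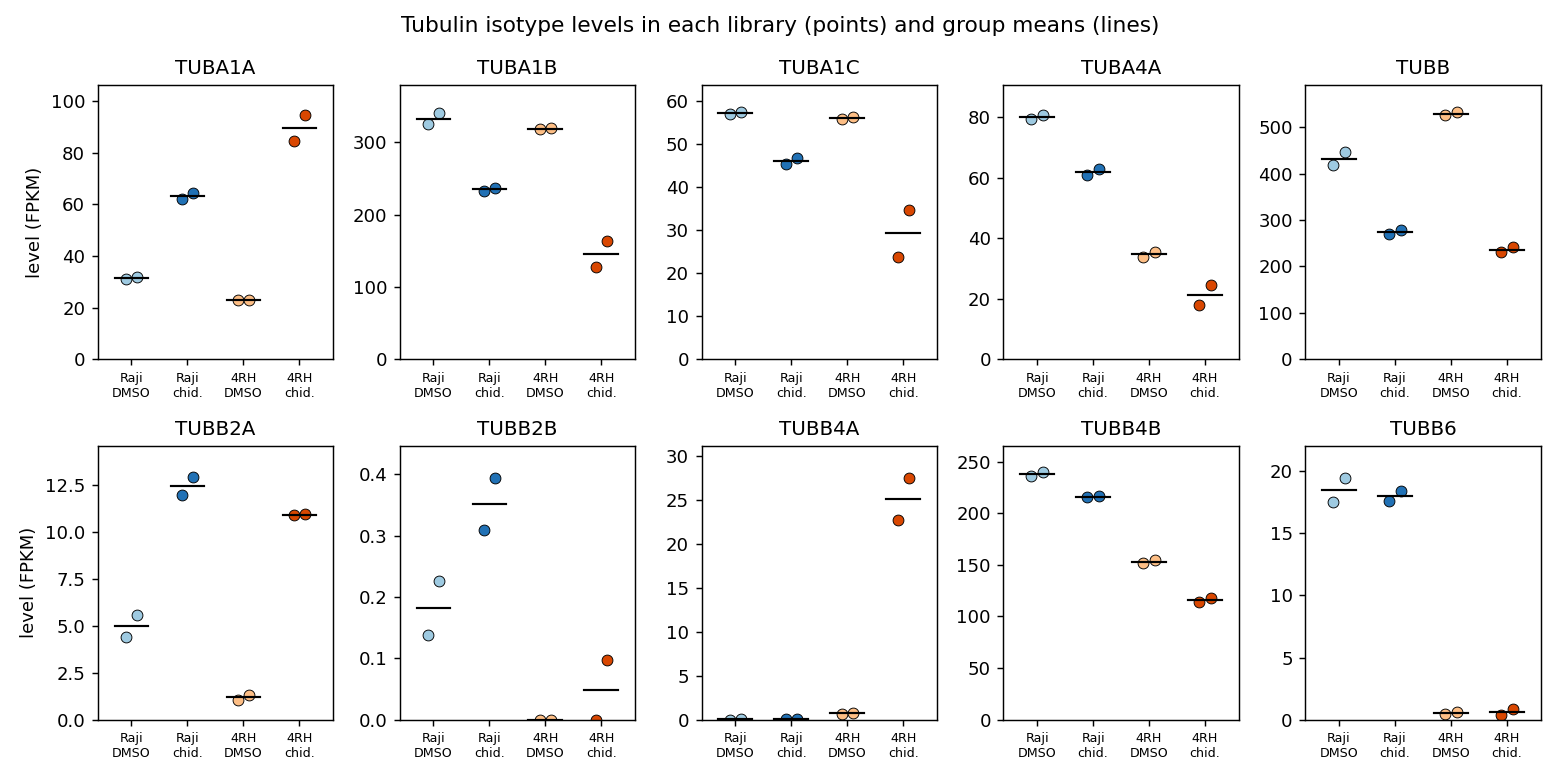
FPKM of each of the 10 tubulin genes, 1 panel a gene with its own linear axis from 0; each point is a library, each line the mean of the 2 libraries of a group (4RH, Raji-4RH; chid., chidamide). TUBB4A stands at 22.7 and 27.5 FPKM in Raji-4RH with chidamide and under 1 FPKM elsewhere, TUBB6 is near 18 FPKM in Raji and under 1 FPKM in Raji-4RH, and TUBA1A rises in both lines.

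TUBB2A (ENSG00000137267, chr6:3153669-3157526), a β isotype known from neurons and other differentiated cells, rose in both lines. In Raji it had 4.43 and 5.58 FPKM with DMSO and 11.97 and 12.93 FPKM with chidamide. In Raji-4RH it had 1.05 and 1.34 FPKM with DMSO (34 and 49 reads) and 10.9 FPKM in both chidamide libraries. The chidamide libraries lay above the DMSO libraries in each line, 2.49-fold in Raji and 9.16-fold in Raji-4RH by the means. The log2 fold change was 1.17 (standard error 0.101) in Raji and 2.45 (standard error 0.101) in Raji-4RH, on the log2(FPKM + 1) scale, which understates changes of low values. The treated levels of the lines were close (12.4 ± 0.677 and 10.9 ± 0.0103 FPKM), while the DMSO levels were 4.19-fold apart.

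TUBA1A (ENSG00000167552, chr12:49184796-49189324), the α isotype of developing neurons, rose in both lines as well. It had 31.8 and 31.0 FPKM in Raji with DMSO and 64.3 and 62.0 FPKM with chidamide. In Raji-4RH the values were 22.9 and 22.7 FPKM with DMSO and 84.8 and 94.9 FPKM with chidamide. No group overlapped another, and the order of both lines was exchanged by the treatment, with Raji-4RH below Raji in DMSO and above it with chidamide. The fold of the means was 2.01 in Raji and 3.94 in Raji-4RH, and the log2 fold changes were 0.99 and 1.93 (standard error 0.0621 for each). TUBA1A overlaps TUBA1C on the opposite strand, as 9 of the 10 genes overlap at least 1 annotated gene on the other strand (all but TUBB2A). Counting by strand was not stated in the sources used here, so reads of such pairs cannot be told apart there.

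TUBB2B (ENSG00000137285, chr6:3224261-3231730), a β isotype of migrating neurons and the near-copy of TUBB2A, was the only gene of the 10 that did not pass the filter. It had 6 and 10 reads in Raji with DMSO, 14 and 18 reads in Raji with chidamide, 0 reads in both Raji-4RH DMSO libraries, and 3 reads and 0 reads in Raji-4RH with chidamide. Its level was at most 0.394 FPKM in any library, and the 2 DMSO libraries of Raji-4RH allow up to 0.0729 and 0.0645 FPKM at 3 reads, for counting error only.

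The isotypes that dividing cells use most went the other way. TUBB (ENSG00000196230, chr6:30720201-30725426), the main β-tubulin of these libraries, had 419 and 446 FPKM in Raji with DMSO and 279 and 270 FPKM with chidamide. In Raji-4RH it had 527 and 533 FPKM with DMSO and 231 and 241 FPKM with chidamide. Each chidamide group lay below its DMSO group. TUBB fell by 0.65 on the log2 scale in Raji and by 1.16 in Raji-4RH (standard error 0.0595 for each), and its DMSO level was 1.225-fold higher in Raji-4RH.

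TUBA1B (ENSG00000123416, chr12:49127782-49131397), the main α-tubulin of these libraries, had 341 and 325 FPKM in Raji with DMSO and 233 and 236 FPKM with chidamide. In Raji-4RH the values were 318 and 319 FPKM with DMSO and 128 and 164 FPKM with chidamide. TUBA1B fell by 0.50 in Raji and by 1.13 in Raji-4RH on the log2 scale (standard error 0.102 for each). The replicates of Raji-4RH with chidamide were 1.28-fold apart, a smaller gap than that to the DMSO libraries.

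TUBA1C (ENSG00000167553, chr12:49188736-49274603) and TUBA4A (ENSG00000127824, chr2:219249711-219278170), a widely expressed α isotype and the α isotype also known from platelets and muscle, had the widest replicate gaps by ratio among the genes above 1 FPKM in every library (1.46-fold and 1.36-fold, in Raji-4RH with chidamide). TUBA1C had 57.4 and 56.9 FPKM in Raji with DMSO, 46.7 and 45.4 FPKM in Raji with chidamide, 55.8 and 56.3 FPKM in Raji-4RH with DMSO, and 23.8 and 34.7 FPKM in Raji-4RH with chidamide. TUBA4A had 80.8 and 79.6 FPKM, 62.9 and 60.8 FPKM, 33.8 and 35.5 FPKM, and 17.9 and 24.4 FPKM in the same order. In both genes each chidamide group lay below its DMSO group, and replicate 1 of Raji-4RH with chidamide was the lower library. TUBA1C fell by 0.94 in Raji-4RH on the log2 scale (standard error 0.138), with a value of -0.68 when chidamide replicate 1 of Raji-4RH was left out and -1.204 when replicate 2 was. Its log2 fold change of -0.31 in Raji did not pass the test (adjusted p = 0.0880, limma, from 0.000124 to 0.407 over the alternatives). TUBA4A fell by 0.70 in Raji-4RH, with a value of -0.49 when chidamide replicate 1 of Raji-4RH was left out and -0.91 when replicate 2 was. In Raji TUBA4A fell by 0.37 (adjusted p = 0.0234, from 9.07e-05 to 0.106 over the alternatives).

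TUBB4B (ENSG00000188229, chr9:137241213-137243707), a β isotype of many tissues and of cilia, moved the least of the genes that fell. It had 236 and 239 FPKM in Raji with DMSO and 215 and 217 FPKM with chidamide. In Raji-4RH it had 152 and 155 FPKM with DMSO and 118 and 114 FPKM with chidamide. The groups did not overlap in either line, and the log2 fold change was -0.40 in Raji-4RH (standard error 0.050) and -0.14 in Raji. The call in Raji (adjusted p = 0.0427, limma) held in only 9 of 17 alternatives. Among those that lost it were the replicate block and quantile normalization, where the log2 fold change was -0.01 (adjusted p = 0.836). The values of TUBB4B stood 11 rows below its label and 56 rows from the nearest shift, between rows at up to 0.320 and up to 7.42 FPKM.

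TUBB6 (ENSG00000176014, chr18:12307669-12344320), a divergent β isotype known from non-neuronal tissue and regenerating muscle, was far lower in Raji-4RH than in Raji with either treatment. It had 19.4 and 17.5 FPKM in Raji with DMSO and 18.4 and 17.6 FPKM with chidamide (1581, 1452, 1559 and 1511 reads). In Raji-4RH it had 0.453 and 0.619 FPKM with DMSO and 0.417 and 0.857 FPKM with chidamide (35, 54, 24 and 65 reads). The treatments overlapped within each line, and all Raji libraries lay above all Raji-4RH libraries. The DMSO level was 34.5-fold lower in Raji-4RH by the means. On the log2(FPKM + 1) scale, which understates differences of low values, the difference was -3.66 (standard error 0.122). The log2 fold change with chidamide was -0.03 in Raji (adjusted p = 0.834) and 0.08 in Raji-4RH (adjusted p = 0.567). Over the alternatives, its adjusted p ran from 0.601 to 0.987 in Raji and from 0.000618 to 0.991 in Raji-4RH, where the sign turned after quantile normalization (log2 fold change -0.52) and without Raji-4RH chidamide replicate 2 (-0.11). Without replicate 1 of that group the value was 0.28 and passed the test. TUBB6 passed the filter only through the Raji groups.

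With chidamide, 7 of the 8 tubulin genes counted (those tested, without TUBB4A) passed the test in Raji-4RH (limma on log2(FPKM + 1), Benjamini-Hochberg adjusted p under 0.05), 2 higher and 5 lower. Of all 10710 genes tested in that comparison 74.9% were called, 43.3% higher and 31.6% lower. After quantile normalization the split of all called genes turned from 4642 higher and 3380 lower to 3718 higher and 4057 lower, and the median over all genes tested from 0.093 to -0.022 on the log2 scale. The median log2 fold change was -0.55 for the 8 tubulin genes. In Raji 6 of the 8 were called, 2 higher and 4 lower, against 60.0% of all genes, 31.5% higher and 28.5% lower, with medians of -0.22 and 0.017. The share of tubulin genes called was thus near the share of all genes in either line. In Raji the calls of TUBA4A and TUBB4B held in only 11 and 9 of 17 alternatives.

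**Figure D2:**
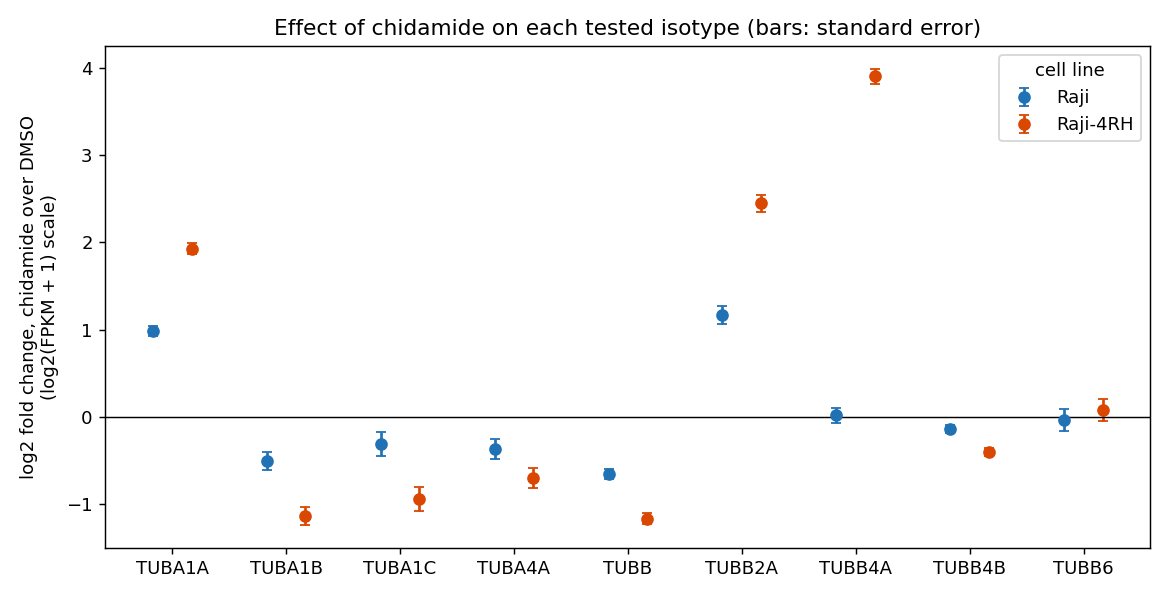
Log2 fold change of chidamide over DMSO for the 9 isotypes that passed the filter on low values, on the log2(FPKM + 1) scale. Points are the fitted values in Raji and Raji-4RH and bars the standard error. TUBB4A (3.90 and 0.02 in Raji-4RH and Raji) was singled out for its level and is shown as a description with no test. TUBA1A and TUBB2A are above 0 in both lines, and TUBB6 is near 0 in both.

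The effect of chidamide was compared between the lines by the interaction term, the effect in Raji-4RH minus that in Raji. It was called for 6 of the 8 genes, 2 higher and 4 lower, against 48.8% of all genes tested, 27.2% higher and 21.7% lower. The difference was 1.28 for TUBB2A (adjusted p = 0.000211), 0.94 for TUBA1A (adjusted p = 8.64e-05), -0.51 for TUBB (adjusted p = 0.00151) and -0.63 for TUBA1B (adjusted p = 0.00756), on the log2 scale. For TUBB4A, described without a test, it was 3.88. TUBB2A, TUBA1A, TUBB and TUBA1B thus moved in the same direction in both lines and further in Raji-4RH. The calls of TUBA1C (-0.63, adjusted p = 0.0275, from 1.43e-05 to 0.0800 over the alternatives) and TUBB4B (-0.26, adjusted p = 0.0152, from 0.00233 to 0.115) did not hold under every alternative. Without Raji-4RH chidamide replicate 1 the difference of TUBA1C was -0.37. TUBA4A (-0.33, adjusted p = 0.130, from 0.000282 to 0.283) passed the test only without Raji-4RH chidamide replicate 2, at -0.54. TUBB6 (0.12, adjusted p = 0.610, from 0.00551 to 0.897) passed it only after quantile normalization, with the opposite sign, at -0.56.

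TUBB4A and TUBB6 passed the filter only through groups of the line where they were high, so both are left out of the count between the DMSO groups. Of the 7 other genes 5 differed between Raji-4RH and Raji, 1 higher and 4 lower, against 73.6% of all genes tested, 41.2% higher and 32.4% lower. The lower genes were TUBB2A (log2 difference -1.45, standard error 0.101), TUBA4A (-1.19, standard error 0.116), TUBB4B (-0.63, standard error 0.050) and TUBA1A (-0.44, standard error 0.0621). TUBB was higher in Raji-4RH by 0.29 (adjusted p = 0.00211, from 0.00023 to 0.0219 over the alternatives), and the values for TUBB4A and TUBB6 were 0.75 and -3.66. TUBA1B and TUBA1C, with differences of -0.06 and -0.03, did not pass the test (adjusted p = 0.604 and 0.864, from 0.144 to 0.873 and from 0.482 to 0.981). The sign of TUBA1C turned after quantile normalization. The log2(FPKM + 1) scale understates the differences of TUBB4A and TUBB6, which were under 1 FPKM in Raji-4RH with DMSO.

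The make-up of each tubulin family was read from FPKM summed over the isotypes of a library, as a description. The α sum went from 501 ± 13.1 to 406 ± 1.78 FPKM with chidamide in Raji and from 432 ± 2.55 to 286 ± 44.8 FPKM in Raji-4RH (SD, n = 2). TUBA1A held 6.27% of the α sum in Raji with DMSO and 15.6% with chidamide, and 5.29% and 31.6% in Raji-4RH. TUBA1B went from 66.3% to 57.9% in Raji and from 73.7% to 50.9% in Raji-4RH. TUBA1A therefore moved from the lowest of the 4 α isotypes in DMSO to the second rank with chidamide in both lines, although in Raji it then overlapped TUBA4A. In Raji-4RH with chidamide the level of TUBA1A rose by 67.0 FPKM while that of TUBA1B fell by 172.9 FPKM.

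The β sum went from 694 ± 21.3 to 522 ± 5.30 FPKM in Raji and from 685 ± 6.96 to 388 ± 8.45 FPKM in Raji-4RH. TUBB went from 62.3% to 52.7% of it in Raji and from 77.3% to 60.7% in Raji-4RH, and TUBB4B from 34.3% to 41.4% and from 22.4% to 29.8%. TUBB4B thus took a larger share of a smaller sum while its level fell. TUBB4A held 0.108% of the β sum in Raji-4RH with DMSO and 6.46% with chidamide. With DMSO it was the fourth of the β isotypes there, below TUBB2A (1.19 FPKM) and above TUBB6 (0.536 FPKM), and with chidamide the third, below TUBB4B (116 FPKM) and above TUBB2A (10.9 FPKM). Neighbours in either order did not overlap in their replicates. In Raji TUBB6 was the third, with 2.67% of the β sum in DMSO and 3.45% with chidamide. In Raji-4RH the levels of TUBB4A and TUBB2A rose by 24.4 and 9.74 FPKM, while that of TUBB fell by 293.7 FPKM.

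**Figure D3:**
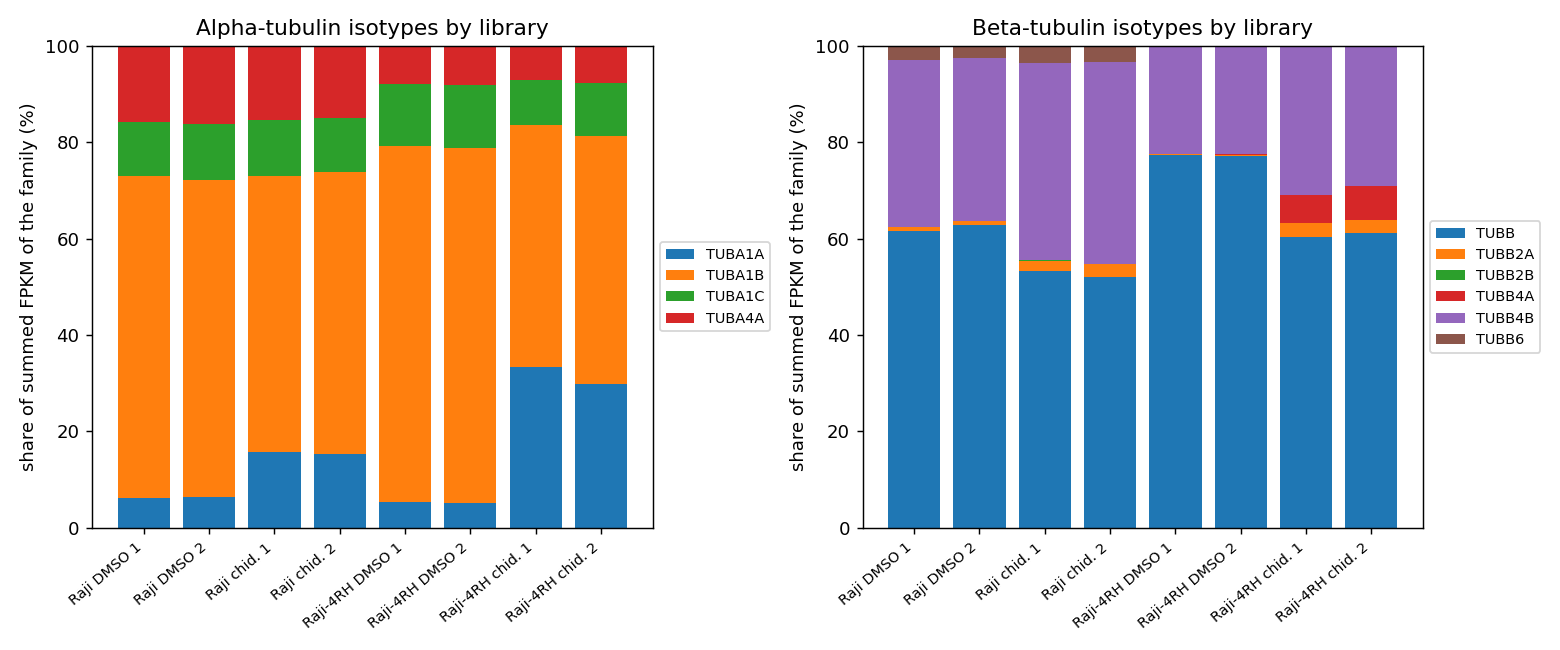
Share of each isotype in the summed FPKM of the α family (left) and the β family (right), in percent, 1 stacked bar for each of the 8 libraries. TUBA1A grows to 31.6% of the α sum in Raji-4RH with chidamide, and TUBB4A appears with 6.46% of the β sum in the same libraries, where TUBB6 is nearly absent.

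The promoters of TUBB4A and TUBB2A, the β genes that were higher with chidamide in Raji-4RH, were compared in the 250 bases before their RefSeq start (GRCh38.p14, minus strand for both). Capitals mark GGGCGG (the GC box) and CCAAT on either strand, and these motifs do not overlap one another. TUBB4A lies at chr19:6502849-6503098 and TUBB2A at chr6:3157545-3157794.
TUBB4A: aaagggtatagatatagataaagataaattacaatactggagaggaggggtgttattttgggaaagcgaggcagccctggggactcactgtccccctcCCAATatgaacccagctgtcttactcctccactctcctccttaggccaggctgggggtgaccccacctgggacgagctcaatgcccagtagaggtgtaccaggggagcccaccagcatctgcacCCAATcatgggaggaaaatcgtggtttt
TUBB2A: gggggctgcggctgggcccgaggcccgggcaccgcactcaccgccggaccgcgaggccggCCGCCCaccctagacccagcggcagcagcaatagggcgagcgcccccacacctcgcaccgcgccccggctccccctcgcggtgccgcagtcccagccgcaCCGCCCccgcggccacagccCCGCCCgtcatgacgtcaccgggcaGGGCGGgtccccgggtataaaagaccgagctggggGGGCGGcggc
The TUBB4A window held 0 GGGCGG, 2 CCAAT and 3 CpG dinucleotides at 52.8% GC, and the TUBB2A window held 5 GGGCGG, 0 CCAAT and 33 CpG at 79.2% GC. Of 35116 promoter windows in the table, 42.6% held at least 1 GGGCGG and 32.0% at least 1 CCAAT, and the median was 58% GC with 11 CpG. CACGTG (the E box, in 6.3% of windows) and TTTGAA (the CHR element of cell cycle genes, in 13.3%), also searched on both strands, were in neither window. Of the other α and β genes named above, TUBA1A, which rose, had 0 GGGCGG, 2 CCAAT and 56.4% GC. TUBA1B and TUBB, which fell, had 3 and 1 GGGCGG and 0 and 1 CCAAT, at 81.2% and 63.6% GC. TUBB4B, which also fell, had 0 GGGCGG, 3 CCAAT and 1 TTTGAA at 56.8% GC. TUBA1C and TUBA4A, lower with chidamide in Raji-4RH, had 2 and 4 GGGCGG and 1 and 0 CCAAT, both at 70.8% GC. TUBA1C also held 1 CACGTG and 2 TTTGAA. TUBB6, not called with chidamide in either line in the fit reported, had 6 GGGCGG and 1 CCAAT at 83.6% GC. TUBB4A had 2 starts in the table, and the nearer one used here lies 264 bases from the start of its GENCODE transcript (18 bases for TUBB2A), so the window may not hold the start in use in these cells. For TUBA1A, TUBA1C, TUBA4A, TUBB and TUBB6 the distance was 181, 175, 114, 151 and 182 bases, so the same limit holds there. These matches describe letters and not binding.

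The other tubulin genes and the genes that nucleate, fold, modify and bind tubulin were read from lists, chosen with earlier results known. Their counts stand beside those over all genes tested, 43.3% higher and 31.6% lower in Raji-4RH and 31.5% higher and 28.5% lower in Raji. Of 7 other tubulin genes tested in Raji-4RH, 2 were higher, 3 lower and 2 not called. Both γ-tubulins, which nucleate microtubules at the centrosome, went in opposite directions there. TUBG1 had 37.0 and 39.96 FPKM with DMSO and 26.4 and 24.0 FPKM with chidamide (log2 fold change -0.59, standard error 0.0751), and TUBG2 had 3.00 and 3.25 FPKM with DMSO and 5.70 and 7.40 FPKM with chidamide (log2 fold change 0.86). The interaction was -0.50 for TUBG1 and 0.40 for TUBG2, and the latter did not pass the test after quantile normalization (0.29, adjusted p = 0.143). In Raji TUBG2 rose by 0.47 and for TUBG1 the log2 value was -0.10 (adjusted p = 0.293). In DMSO TUBG2 was lower in Raji-4RH than in Raji by a log2 difference of -0.84. Of 10 partners of the γ-tubulin ring complex tested, 9 were lower and 1 higher in Raji-4RH, and 6 were lower and 0 higher in Raji, against 31.6% and 28.5% of all genes lower. PCNT, the centrosomal scaffold pericentrin, went from 12.02 ± 0.233 to 5.74 ± 0.0891 FPKM in Raji-4RH, and AKAP9, a Golgi and centrosome scaffold, went from 5.41 ± 0.193 to 8.16 ± 0.731 FPKM. MZT2A, a small subunit of the ring complex, fell by 0.80 in Raji and by 0.57 in Raji-4RH and was 1.06 higher in Raji-4RH than in Raji in DMSO, and the interaction was -0.43 for CDK5RAP2, which anchors the complex, and 0.60 for AKAP9.

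Of 20 folding chaperones and cofactors tested, 12 were lower and 1 higher in Raji-4RH (median log2 fold change -0.50), and 9 were lower and 1 higher in Raji (median -0.19), against 31.6% and 28.5% of all genes lower. After quantile normalization the split in Raji-4RH was 11 lower and 6 higher. CCT5, a subunit of the chaperonin that folds tubulin and actin, had 145 and 148 FPKM in Raji-4RH with DMSO and 68.3 and 67.6 FPKM with chidamide. It fell by 1.10 in Raji-4RH and by 0.79 in Raji on the log2 scale, and was 1.10 higher in Raji-4RH in DMSO. PFDN1, a prefoldin subunit, had the largest negative interaction of the list (-0.53, adjusted p = 0.00389), and CCT4 was lower in Raji-4RH than in Raji in DMSO by a log2 difference of -0.18. Of 12 modifying enzymes tested, 6 were higher and 4 lower in Raji-4RH, and 5 higher and 3 lower in Raji, a split that turned to 4 higher and 5 lower and to 2 higher and 3 lower after quantile normalization. TTLL12, of the tubulin tyrosine ligase-like family, fell by 1.44 in Raji-4RH (from 58.9 ± 1.98 to 21.0 ± 1.25 FPKM) and by 0.81 in Raji. SVBP, the partner of the vasohibin tubulin carboxypeptidases, rose by 0.60 in Raji-4RH, with an interaction of 0.56. AGTPBP1, a deglutamylase, rose by 0.56 in both lines and was lower in Raji-4RH in DMSO by a log2 difference of -0.55, while TTLL4, a polyglutamylase, was higher there by 0.34.

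Of 28 microtubule associated and severing proteins tested, 8 were higher and 15 lower in Raji-4RH, and 4 higher and 11 lower in Raji. The higher genes include MAP2, which reached 1 FPKM only in the Raji-4RH chidamide libraries (1.125 and 1.015 FPKM). Its calls are therefore a description and no independent test. Called in either direction were 74.9% and 60.0% of all genes, near the share of this list. CLIP2, a linker of microtubule ends that is known from brain, rose in both lines, from 0.473 ± 0.0608 to 9.85 ± 0.902 FPKM in Raji-4RH and from 1.41 ± 0.185 to 9.18 ± 0.344 FPKM in Raji. KIF2C, a mitotic depolymerase, had 40.1 and 40.5 FPKM in Raji-4RH with DMSO and 13.8 and 14.7 FPKM with chidamide, and its interaction was -1.26. STMN1, which sequesters tubulin dimers, fell by 0.56 in Raji and by 0.61 in Raji-4RH, and its neuronal relative STMN3 had an interaction of 1.19, with 5.15 and 5.82 FPKM in Raji-4RH with DMSO and 10.3 and 11.2 FPKM with chidamide. MAP1B, a microtubule protein of growing axons, stood at 38.7 and 37.9 FPKM in Raji-4RH with DMSO, at 21.6 and 22.7 FPKM with chidamide, and at most at 0.0321 FPKM in any Raji library. EML4, a microtubule-binding protein, was lower in Raji-4RH than in Raji in DMSO by a log2 difference of -1.45. The part of the cell cycle in the levels of the tubulin genes was not tested.

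Of the 16 neuron and myelin genes listed, 4 reached the filter, with 3 higher in Raji-4RH and 2 higher in Raji. Both counts include ENO2, which reached 1 FPKM only in the Raji-4RH chidamide libraries. Its calls are therefore a description and no independent test. Over all genes tested, 43.3% were higher in Raji-4RH and 31.5% in Raji. After quantile normalization 2 of the 4 were higher in Raji-4RH, and 1 was higher and 1 lower in Raji. ENO2, the neuronal enolase, had 0.124 and 0.154 FPKM in Raji-4RH with DMSO and 2.81 and 2.88 FPKM with chidamide, and it rose by 1.75 on the log2 scale there and by 0.46 in Raji. SYP, the synaptic vesicle protein synaptophysin, rose by 0.66 in both lines on the log2(FPKM + 1) scale, which understates changes of low values. Its mean went from 0.339 to 1.12 FPKM in Raji-4RH and from 1.73 to 3.33 FPKM in Raji. MBP, myelin basic protein, rose by 0.35 in Raji-4RH, while its mean went from 1.99 to 1.81 FPKM in Raji. ENO2, SYP and MBP were named after their values were seen. UCHL1, a ubiquitin hydrolase of neurons, was the highest of the list at 137 to 206 FPKM in the 8 libraries and was 0.40 higher on the log2 scale in Raji-4RH in DMSO. Its values with chidamide did not pass the test in either line (0.12, adjusted p = 0.0660 in Raji-4RH, and -0.05, adjusted p = 0.452 in Raji). The part of the neuron markers in the level of TUBB4A was not tested.

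**Figure D4:**
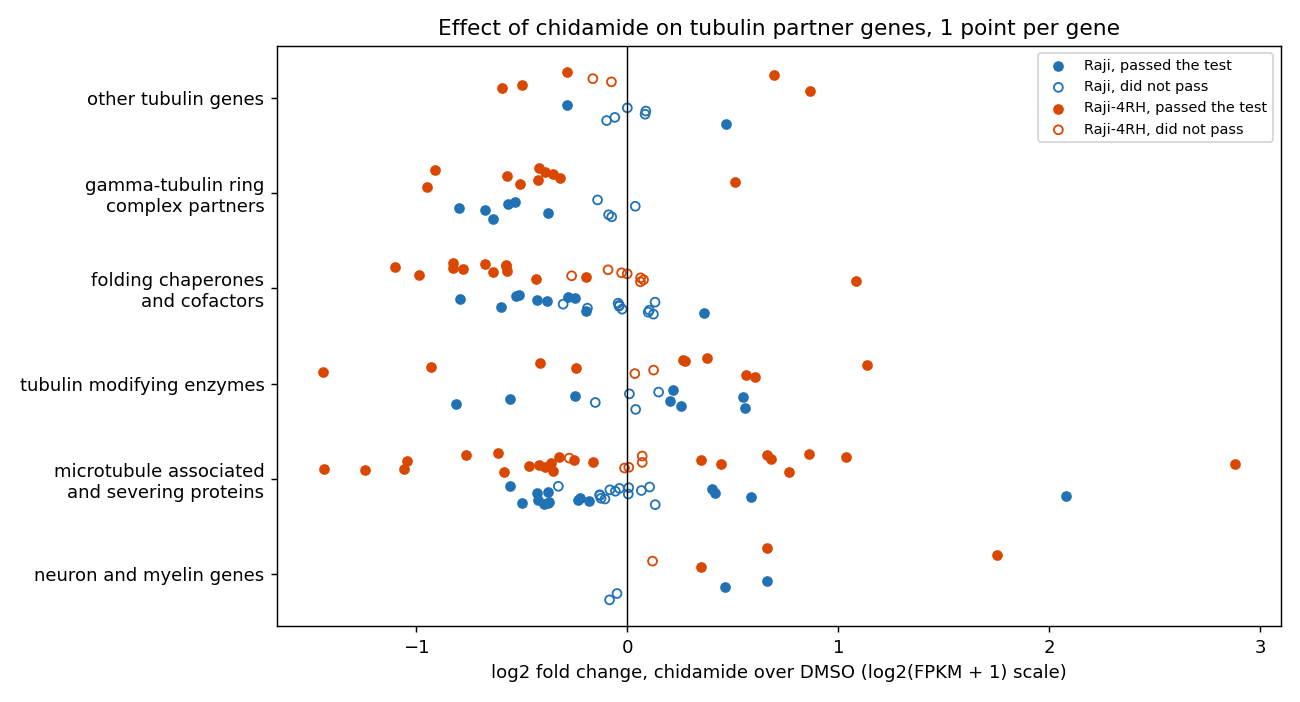
Log2 fold change of chidamide over DMSO (log2(FPKM + 1) scale) for each tested gene of the 6 lists, in Raji (blue) and Raji-4RH (orange); filled points passed the test and open points did not. Ring complex partners and folding genes lie mostly below 0 in Raji-4RH (9 of 10 and 12 of 20 lower), and CLIP2 is the point at 2.88 in Raji-4RH.

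By Pearson correlation of log2(FPKM + 1) over the 8 libraries, the genes most like TUBB4A among 6613 genes averaging 5 FPKM or more were GRAMD4 (r = 0.994), KCTD20 (0.994), LAMTOR3 (0.992), RETREG3 (0.992) and ATF7IP (0.992). These values are a description, since the points share libraries and groups. The other genes moved far less in size. GRAMD4 had 5.61 to 6.80 FPKM in the 6 other libraries and 11.4 and 11.3 FPKM in Raji-4RH with chidamide, while KCTD20 had 26.3 to 28.5 FPKM and 40.9 and 41.5 FPKM.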

How the data were processed

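RNA-seq of 8 libraries (Raji and Raji-4RH, DMSO or 3 μM chidamide for 24 h, 2 replicates per group) was analyzed, with groups taken from the sample labels. The authors deposited 1 table of FPKM values with a gene length per Ensembl ID, and each library was kept separate. The submitters' processing notes name HISAT2 2.0.5, SAMtools 1.7 and HTSeq 0.9.1 and the builds hg38 and GRCh38, with no roles, and the annotation was not given in the sources used here. From label row 6235 on, the deposited values stand below their labels. Each of 18143 labels up to row 18171 was given its values by fixed row shifts, and FPKM was recomputed with the gene's own length. TUBB4A, TUBA1B and TUBA4A needed no shift, TUBB2A and TUBB2B stood 1 row below, TUBA1A and TUBA1C 4, TUBB6 5, TUBB4B 11 and TUBB 12. Reads were recovered as FPKM times length times library total, which gave whole numbers (within 0.05 reads) for 100% of the values above 0. Intervals at 3 reads cover counting error only.

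The members, lists and rules were chosen with earlier results of these data known. limma 3.58.1 in R 4.3.3 (lmFit, eBayes with trend) was run on log2(FPKM + 1) in 1 fit over 8 libraries for 10710 genes that reached 1 FPKM in 2 or more libraries, with Benjamini-Hochberg adjusted p-values called under 0.05. The fit was tested on simulated data. An exact test of 2 against 2 libraries cannot go below p = 0.333, and separate cultures are not stated, so p-values measure only the spread between these libraries. Named genes were the 10 members, both γ-tubulins, per list and comparison the largest called rise and fall among genes averaging 5 FPKM or more, and the 5 genes most correlated with TUBB4A. Alternatives were a pseudocount of 0.1, other filters, quantile normalization, median-centred libraries, no trend, the compared libraries alone, a replicate block, limma voom on recovered reads, the rows as deposited, a log2 fold change of at least 1 and leaving out each library, with a crossed replicate block added after the data were seen. Not placed were ARL2, MZT1, NEFL, OLIG2, PFDN6, TTLL3, TUBB3, TUBB8 and TUBGCP5. Coordinates and coding ends are from GENCODE v29, promoters from RefSeq (GRCh38.p14, all 10 genes matched). Coding sequences were aligned with Biopython 1.88 and figures drawn with matplotlib 3.10.9 in Python 3.11.15.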

Additional observations from a re-analysis of the deposited data

Results flagged for a closer look

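The effect of chidamide differed between the lines by the limma interaction test for 6 tubulin genes that rose or fell. The difference, Raji-4RH minus Raji on the log2 scale, was 1.28 for TUBB2A, 0.94 for TUBA1A, -0.51 for TUBB, -0.63 for TUBA1B, -0.63 for TUBA1C and -0.26 for TUBB4B. For TUBB4A it was 3.88, and since that gene was chosen for this pattern the value is a description. The calls of TUBA1C and TUBB4B did not hold under every alternative (adjusted p up to 0.0800 and 0.115), and without Raji-4RH chidamide replicate 1 the difference of TUBA1C was -0.37. The 6 genes were selected with these libraries in view, and 48.8% of all genes tested differed between the lines by the same test.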

How the results depend on the processing

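Under the alternatives tried, 568 of the log2 fold changes of tubulin genes kept their direction and their side of the threshold. Another 27 kept the direction and lost the call, 7 gained a call and 10 changed sign. These counts include TUBB4A and TUBB6. For TUBB4A, and for TUBB6 between the DMSO groups, a kept call is a description and no independent test. With a log2 fold change of at least 1 required, 5 tubulin genes were called in Raji-4RH, 1 in Raji, 2 for the interaction and 3 between the DMSO groups, TUBB4A and TUBB6 included (8, 6, 7 and 7 in the fit reported). Quantile normalization turned the sign for TUBB6 with chidamide (-0.52 in Raji-4RH, 0.044 in Raji and -0.56 for the interaction), for TUBB4A in Raji (-0.097) and for TUBA1C between the DMSO groups (0.041). Median-centred libraries gave -0.024 for TUBB4A in Raji. Leaving out each library in turn, TUBB6 ran from -0.11 to 0.28 in Raji-4RH, from -0.11 to 0.037 in Raji and from -0.080 to 0.31 for the interaction, and TUBB4A in Raji from -0.013 to 0.048. The cause of these changes was not tested. All are values near 0 in the fit reported, or of genes under 1 FPKM in a line.

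Replicate numbers are shared between groups. Same-numbered libraries did not deviate together in every pair of groups (correlation 0.166 for chidamide and DMSO in Raji-4RH, -0.091 in Raji and -0.155 between the DMSO groups). These values do not show pairing and cannot exclude it. Whether same-numbered libraries were processed together is not stated in the sources used here. With the replicate block, 7886 genes were called in Raji-4RH, 6183 in Raji, 4915 for the interaction and 7748 between the DMSO groups. With crossed replicate numbers between the DMSO groups, chosen after the data were seen, 8037 genes were called. TUBB, TUBB2A, TUBA1A, TUBA4A and TUBB4B kept their calls there. Depth limits TUBB4A in Raji, TUBB2B and TUBB6 in Raji-4RH, with at most 65 reads in a library. It also limits TUBB2A (34 and 49 reads) and TUBB4A (45 and 58 reads) in Raji-4RH with DMSO. Each fit without a library leaves 1 sample in a group, which is assumed to vary like the other groups.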
